A study of Mus musculus with 24 samples.

Results

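The genes described here are 37 listed targets of the transcription factor ATF4, together with enzymes and transporters that supply amino acids, among 46517 gene entries of a mouse RNA-seq count table. They were chosen by name from a list of amino acid synthesis, amino acid transport, one-carbon and tRNA synthetase genes plus the stress regulators around ATF4, and each symbol was matched to 1 Ensembl gene. All 37 matched. They comprise 7 regulators, 7 feedback and stress outputs, 8 synthesis enzymes, 3 one-carbon enzymes, 4 transport genes and 8 cytosolic tRNA synthetases. The filter on low counts left 14866 genes for testing, 36 of the 37 among them. Stc2, a secreted glycoprotein gene, did not pass, with at most 0.808 CPM (read counts scaled to library size) in any library.

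The RNA came from βTC3 cells, an insulinoma line from the Rip-Tag2 mouse, in which the insulin promoter drives the SV40 large T antigen in beta cells. All groups therefore share that transgenic background and 1 parental line. Cells carried the plasmid PB-31 miR-23b cluster, PB-31 miR-137 or PB-31 alone as the control, with expression inducible by doxycycline (DOX). In each miRNA line, DOX-withdrawn cells (7 d with 2 µg/ml DOX, then 7 d without, 14 d in all), cells with 7 d of DOX and cells with no DOX for 7 d were sequenced. The control line was sequenced with 7 d of DOX and with no DOX. This gave 8 groups of 3 polyA libraries, 24 in all.

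ATF4 is translated more when kinases that sense missing amino acids, misfolded protein or other stress phosphorylate eIF2α. It then pairs with C/EBP proteins on a composite DNA element and raises genes that make, import and charge amino acids, and others that dampen the response. Beta cells secrete large amounts of protein, and this pathway is well studied in them in connection with endoplasmic reticulum stress.

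The promoters of the members were searched for the core letters of that composite element. RefSeq promoter windows (GRCm38.p6, 250 bases before to 50 after the start) were at hand for 32 members. The letters TGATGNAA, searched on both strands, occurred in 11 of these 32 members (34.4%), and in 1219 of 27025 genes with a window (4.51%). The members were listed as ATF4 targets, so this contrast is no test of the list. By role they occurred in 2 of 7 regulators, 2 of 6 feedback and stress outputs, 3 of 7 synthesis genes, 4 of 6 tRNA synthetases, 0 of 3 one-carbon genes and 0 of 3 transport genes. Stretches of 6 windows with these letters are printed, from members whose library values are given in at least some groups. They are shown on the gene's own strand with the matched letters in capitals, in reverse complement where the match lies on the opposite strand.
Trib3, chr2:152344028-152344057, minus strand: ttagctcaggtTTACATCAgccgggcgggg
Nupr1, chr7:126625562-126625591, minus strand: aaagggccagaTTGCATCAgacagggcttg
Chac1, chr2:119351038-119351067, plus strand: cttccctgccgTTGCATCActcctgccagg
Vldlr, chr19:27216809-27216838, plus strand: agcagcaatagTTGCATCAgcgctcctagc
Asns, chr6:7693214-7693243, minus strand: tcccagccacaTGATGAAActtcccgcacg
Pck2, chr14:55540152-55540181, plus strand: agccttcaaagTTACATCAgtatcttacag
In the Asns window the match lies 23 bases before the start, and in the Nupr1 window 110 bases before it. Pycr1, Gars, Iars and Tars were among the other members with the letters. A match of letters is a description of the sequence and shows no binding.

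The miRNAs that the plasmids carry pair with transcripts mainly through their seed, bases 2 to 8, shown in capitals from RefSeq. The cluster holds miR-27b and miR-24 beside miR-23b, for which no sequence was used here.
mmu-miR-27b-3p: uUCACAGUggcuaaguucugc
mmu-miR-24-3p: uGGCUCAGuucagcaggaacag
mmu-miR-137-3p: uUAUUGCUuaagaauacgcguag
The longest annotated 3′ UTR of each member (GENCODE M21) was searched for the complement of these seeds. For miR-27b it occurred in 8 of 36 members (22.2%), beside 19.4% of 13040 genes, and for miR-24 in 11 of 36 (30.6%), beside 21.4%. The miR-137 complement occurred in 1 member, the mitochondrial protease gene Lonp1 (2.78%), beside 11.04% of all genes. Sites are shown for the 5 members with such a complement whose decline in the miR-23b line exceeded the control line's by most, with the seed complement in capitals. They were chosen for printing after those values were known.
Cth, for miR-27b: tatttggaatacctACTGTGAa
Sesn2, for miR-27b: ttgcagagcaaacaACTGTGAa
Eif4ebp1, for miR-24: tggtcacctttcctCTGAGCCt
Vldlr, for miR-24: ttgggatgaaagaaCTGAGCCa
Aars, for miR-24: cgcgcgccgggctgCTGAGCCa

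Reads counted in genes numbered 15759849 to 24144737 per library, so counting error was small for most members: among those tested, the lowest library count was 37 (Cth) and the next lowest 74 (Cebpb). Transcripts of the induced loci followed the labels, except that the entry of Mir137 itself stood at 0 CPM in every group. Mature miRNA was not measured in these libraries. Mir27b averaged 83.4 ± 5.07 CPM with DOX and 0.490 ± 0.0605 CPM without in the miR-23b line (SD, n = 3 each). The transcript Gm26871, which spans Mir137, averaged 123 ± 3.33 CPM with DOX and 4.41 ± 0.387 CPM without in the miR-137 line. Beta cell markers were abundant in every library, with Ins2 at 6609 CPM or more, while summed markers of exocrine, fibroblast, leukocyte and endothelial cells stayed at or below 4.52 CPM, with Prss1, Amy2a2 and Cd3e at 0 in every library. The control libraries with DOX held at least 1 count for 20898 to 21066 genes, more than the at most 20336 of the other 21. Cells were plated in triplicate, so the p-values may measure technical spread only. Neither dates nor plates nor runs are labelled, so a batch common to the 3 libraries of a group cannot be told apart from the group's treatment, nor can fewer cells with an RNA be told apart from less of it per cell.

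Per gene length, the set spanned a wide range of abundance. In the control line without DOX, Asns, which makes asparagine, led with 489 TPM (the authors' values, scaled to gene length and library size). It was followed by Psat1 (296 TPM), a serine synthesis enzyme, and the synthetases Sars (288 TPM), Aars (263 TPM) and Gars (201 TPM). Atf4 itself ranked 11th with 112 TPM. The lowest were Chac1 (15.4 TPM), Cebpb (3.36 TPM), Cth (2.66 TPM) and Stc2 (0.0900 TPM). The members together took 0.602% to 0.607% of gene counts with DOX and 0.729% to 0.742% without in the miR-23b line. For the miR-137 line the shares were 0.602% to 0.615% with DOX and 0.694% to 0.715% without, and in the control line 0.592% to 0.604% with DOX and 0.708% to 0.718% without.

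**Figure D1:**
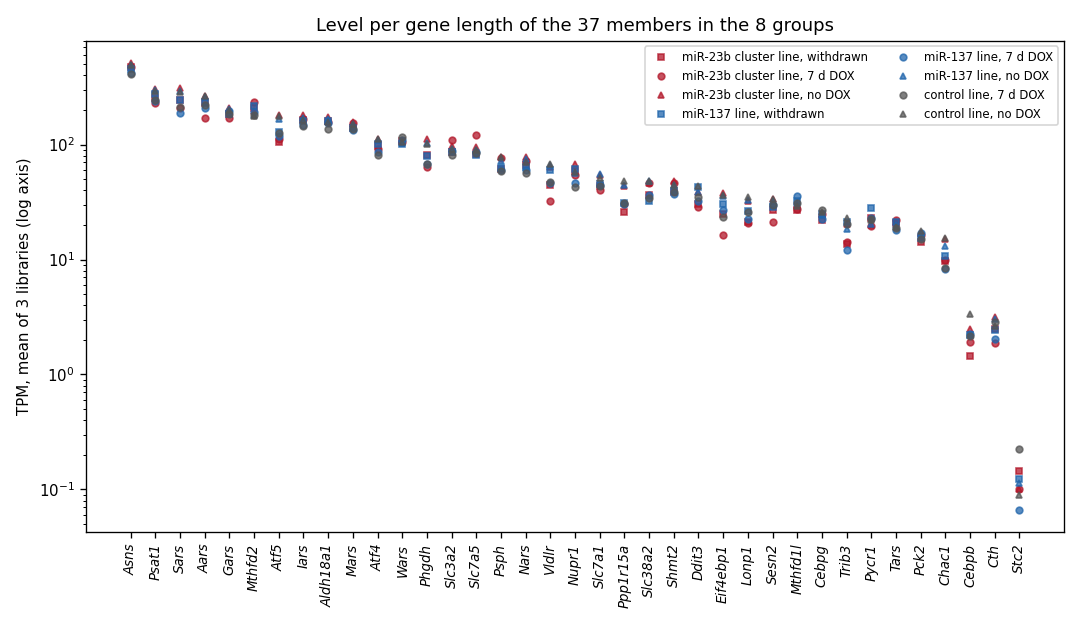
Mean TPM of 3 libraries (vertical, log axis) for the 37 members (horizontal, ordered by the control line without DOX) in the 8 groups, coloured by line, with squares for withdrawn, circles for 7 d DOX and triangles for no DOX. In the control line without DOX, Asns is highest at 489 TPM and Stc2 lowest at 0.0900 TPM.

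The first question is what 7 d of DOX did to these genes in each line, the control line included. Most of them fell in all 3 lines. A gene is said to have risen or fallen where edgeR's quasi-likelihood test gave a Benjamini-Hochberg adjusted p below 0.05 over all genes tested. In the miR-23b line 32 of 36 fell and 2 rose, where 28.6% of all genes tested fell and 28.8% rose (57.4% in either direction). Under miR-137, 27 fell and 4 rose, with 21.8% of all genes falling and 21.0% rising (42.9%). In the control line 28 fell and 1 rose, with 19.3% of all genes falling and 18.5% rising (37.8%). The member medians were -0.39, -0.24 and -0.26 on the log2 scale in the miR-23b, miR-137 and control lines, against 0.0084, -0.0003 and 0.0077 over all genes tested. The 3 comparisons share no library, and 23 of the 36 members (63.9%) fell in all of them, as did 10.2% of all genes tested. No member rose in all 3. In TPM the miR-23b line's calls shifted upward among all genes, from 50.2% to 65.0% higher, and 22 members were then lower and 3 higher.

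Atf4 (ENSMUSG00000042406), on chromosome 15 (GRCm38, 80255184 to 80257541, plus strand), was among those that fell everywhere. It stood at 295, 299 and 305 CPM with DOX in the miR-23b line, against 385, 398 and 388 CPM without. In the miR-137 line the values were 312, 304 and 292 CPM with DOX, against 388, 388 and 368 CPM without. In the control line they were 295, 277 and 271 CPM with DOX, against 387, 388 and 382 CPM without. With DOX every library lay below every library without it, in each line. The log2 fold changes were -0.38, -0.33 and -0.45 in the miR-23b, miR-137 and control lines (SE 0.03 each, adjusted p at most 6.4e-11), the control line having the lowest estimate of the 3. These are RNA levels, and the control of ATF4 by translation is not seen in them.

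Atf5, a related stress factor gene, had 194, 213 and 197 CPM with DOX in the miR-23b line, against 344, 380 and 338 CPM without (log2 fold change -0.81, SE 0.05). In the control line Atf5 had 243, 242 and 230 CPM with DOX, against 326, 356 and 345 CPM without (log2 fold change -0.52, SE 0.05). Its groups did not overlap in either line. Ddit3, which encodes the pro-apoptotic factor CHOP, had 23.7, 26.8 and 23.2 CPM with DOX in the miR-23b line, against 33.9, 38.2 and 40.3 CPM without (log2 fold change -0.61, SE 0.07). Ddit3 in the control line fell less, to 33.7, 33.9 and 33.4 CPM with DOX, against 40.0, 43.3 and 43.8 CPM without (log2 fold change -0.33, SE 0.06). Nupr1, a small stress-induced chromatin protein gene, fell in the 3 lines, by 0.42 in the miR-23b, 0.27 in the miR-137 and 0.45 in the control line on the log2 scale.

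Cebpb and Cebpg encode C/EBP factors, Cebpg being a dimer partner of ATF4. Cebpb was low and variable, with 3.84, 7.85 and 4.56 CPM with DOX in the miR-23b line, against 7.63, 9.61 and 5.66 CPM without, so these groups overlapped. It had 7.76, 5.99 and 6.00 CPM with DOX in the control line, against 9.03, 10.2 and 11.1 CPM without, and passed the test in both lines (log2 fold changes -0.49, SE 0.20, and -0.62, SE 0.18). For the miR-137 line Cebpb had 6.33, 6.32 and 7.94 CPM with DOX, against 7.94, 7.83 and 4.62 CPM without, and these groups overlapped (log2 fold change -0.01, SE 0.19, adjusted p = 0.98). That response differed from the control line's by 0.61 (SE 0.26, adjusted p = 0.14), which did not pass. An overlapping gene on the other strand, Tmem189, covers 20.7% of its exon bases, so part of this count is uncertain. Cebpg fell slightly, by 0.10 in the miR-23b and 0.14 in the miR-137 line on the log2 scale. It had 127, 124 and 119 CPM with DOX in the miR-23b line, against 131, 136 and 129 CPM without, and 119, 113 and 118 CPM with DOX in the miR-137 line, against 124, 129 and 132 CPM without. The control line had 138.2, 139.5 and 135.7 CPM of Cebpg with DOX, against 134.1, 136.8 and 139.0 CPM without, and these groups overlapped (log2 fold change 0.01, SE 0.04, adjusted p = 0.81).

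Trib3, a pseudokinase gene that feeds back on ATF4, fell in both miRNA lines and did not pass the test in the control line. It had 22.9, 21.4 and 24.7 CPM with DOX in the miR-23b line, against 33.0, 37.8 and 36.4 CPM without, and 21.0, 20.8 and 19.1 CPM with DOX in the miR-137 line, against 32.0, 35.3 and 30.6 CPM without. The control line gave 33.3, 40.0 and 35.7 CPM with DOX, against 38.3, 42.4 and 35.8 CPM without. DOX libraries were thus the lower ones without overlap in both miRNA lines (log2 fold changes -0.65 and -0.68, SE 0.07 each), and the control line's groups overlapped (-0.09, SE 0.07, adjusted p = 0.30).

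**Figure D2:**
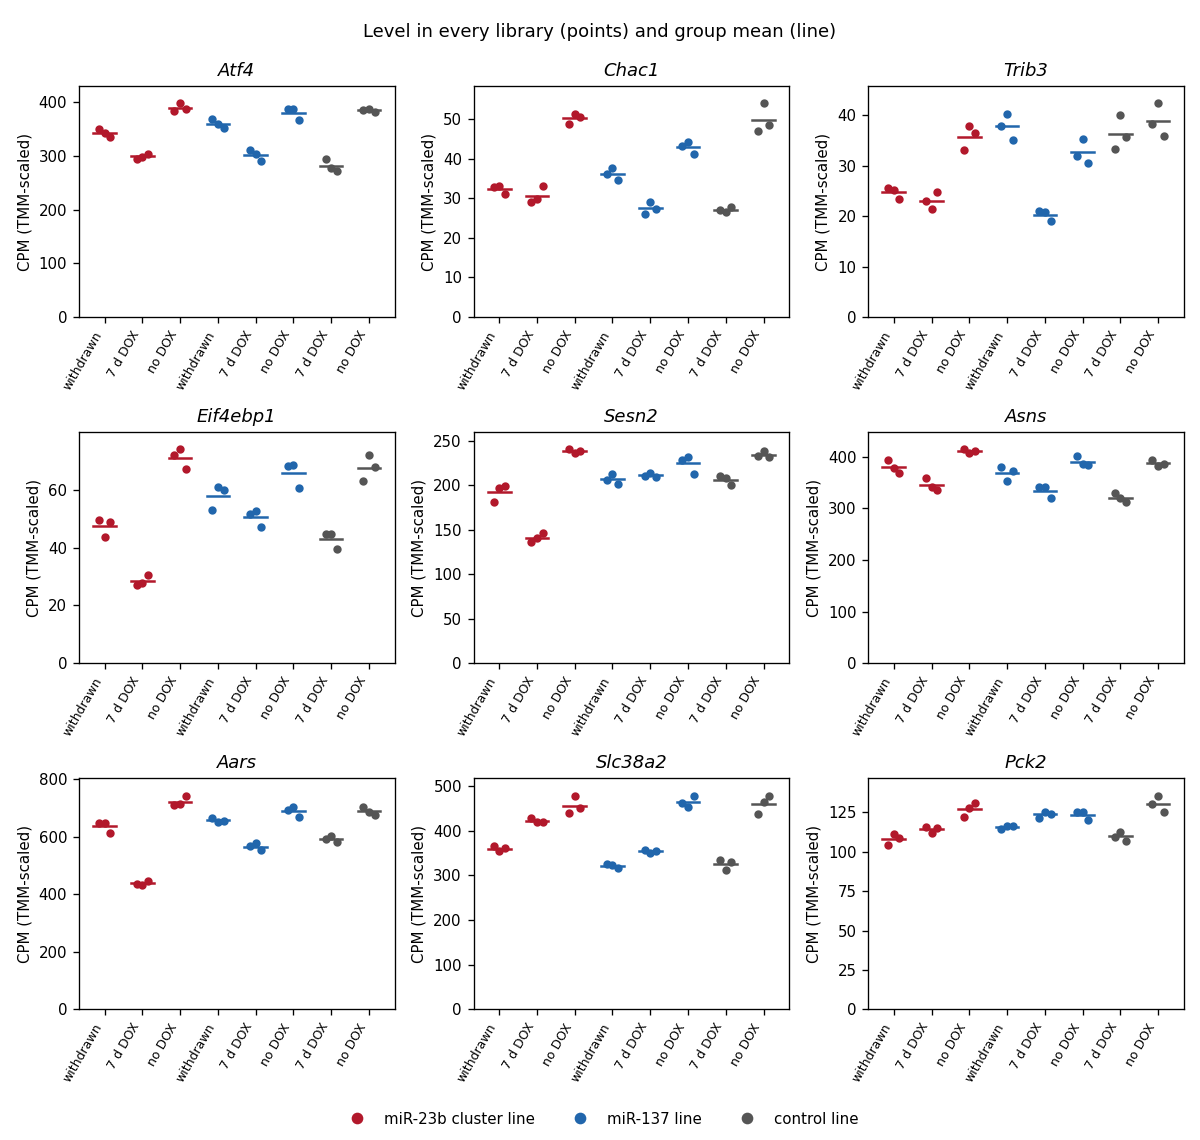
CPM in each library (points) and group means (lines) of 9 members, with the groups of the miR-23b line, the miR-137 line and the control line from left to right on a linear axis that starts at 0. Atf4 and Chac1 are lower with DOX than without in all 3 lines, Trib3 only in the miRNA lines by the test used, and Eif4ebp1, Sesn2 and Aars are lowest in the miR-23b line with DOX.

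The feedback and stress outputs had the lowest role medians, at -0.74, -0.50 and -0.55 in the miR-23b, miR-137 and control lines, and all 6 tested fell in each line. Chac1, which degrades glutathione, had 28.95, 29.81 and 33.12 CPM with DOX in the miR-23b line, against 48.7, 51.2 and 50.6 CPM without. Chac1 in the miR-137 line had 25.98, 29.02 and 27.30 CPM with DOX, against 43.2, 44.2 and 41.1 CPM without, and in the control line 27.1, 26.5 and 27.7 CPM with DOX, against 46.8, 53.9 and 48.5 CPM without. It was the member with the largest fall in the control line, at -0.87 (SE 0.06) on the log2 scale, against -0.72 and -0.64 in the miR-23b and miR-137 lines. Ppp1r15a encodes the subunit that directs a phosphatase to eIF2α and ends the response. It had 29.96, 32.82 and 33.68 CPM with DOX in the miR-23b line, against 49.9, 49.7 and 52.3 CPM without, and 35.71, 34.99 and 33.33 CPM with DOX in the control line, against 52.0, 55.6 and 56.5 CPM without. Its log2 fold change was -0.66 in both (SE 0.05 each) and -0.56 in the miR-137 line.

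Other outputs fell most in the miR-23b line. Eif4ebp1, on chromosome 8 (27260329 to 27276674, plus strand), encodes a repressor of cap-dependent translation. It had 27.1, 27.7 and 30.5 CPM with DOX in the miR-23b line, against 71.9, 74.0 and 67.2 CPM without. With -1.33 (SE 0.06, adjusted p = 5.8e-20) on the log2 scale, this was the largest change of any member in any of the 13 comparisons. Eif4ebp1 had 51.7, 52.6 and 47.0 CPM with DOX in the miR-137 line, against 68.4, 68.7 and 60.7 CPM without, and 44.8, 44.6 and 39.6 CPM with DOX in the control line, against 63.2, 72.0 and 67.8 CPM without (log2 fold changes -0.38 and -0.65, SE 0.06 each). Every line showed lower DOX libraries without overlap.

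Sesn2, an inhibitor of mTORC1 that senses leucine, had 136, 140 and 146 CPM with DOX in the miR-23b line, against 240, 236 and 238 CPM without (log2 fold change -0.76, SE 0.04). Its decline was small elsewhere, with 210, 214 and 210 CPM with DOX in the miR-137 line, against 228, 232 and 213 CPM without, and 210, 208 and 201 CPM with DOX in the control line, against 232, 238 and 232 CPM without. The miR-137 call (-0.09, SE 0.03, adjusted p = 0.041) was lost under DESeq2 (adjusted p = 0.054), with upper quartile scaling (adjusted p = 0.11) and without any 1 of 10 libraries, among them every miR-137 library with DOX (adjusted p 0.051 to 0.22 over the 10). Vldlr, a lipoprotein receptor gene, had 72.9, 74.1 and 74.0 CPM with DOX in the miR-23b line, against 149, 148 and 145 CPM without (log2 fold change -1.003, SE 0.06). Vldlr in the control line had 97.9, 114 and 114 CPM with DOX, against 138, 160 and 147 CPM without (log2 fold change -0.45, SE 0.06). Lonp1 fell by 0.73, 0.53 and 0.43 on the log2 scale in the miR-23b, miR-137 and control lines.

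Among the 8 synthesis enzymes, all fell in the miR-23b line, 6 fell and 1 rose in the miR-137 line, and 6 fell in the control line. Asns changed modestly, with 360, 342 and 336 CPM with DOX in the miR-23b line, against 414, 408 and 411 CPM without, and 329, 320 and 313 CPM with DOX in the control line, against 393, 382 and 386 CPM without. Its log2 fold changes were -0.25, -0.22 and -0.27 (SE 0.03 each) in the miR-23b, miR-137 and control lines, with no overlap of groups. Phgdh, which encodes the first enzyme of serine synthesis, had 27.6, 23.1 and 23.4 CPM with DOX in the miR-23b line, against 43.6, 48.2 and 48.9 CPM without (log2 fold change -0.92, SE 0.06). It had 28.4, 28.5 and 27.6 CPM with DOX in the control line, against 44.2, 43.5 and 41.9 CPM without (log2 fold change -0.62, SE 0.06).

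The next enzymes of the serine pathway, Psat1 and Psph, changed by -0.50 and -0.12 in the miR-23b line, -0.28 and -0.36 in the miR-137 line and -0.28 and -0.34 in the control line. Cct6a, on the other strand, overlaps 10.4% of the exon bases of Psph. Cth, which makes cysteine from cystathionine, had 3.42, 2.57 and 2.28 CPM with DOX in the miR-23b line, against 4.65, 4.29 and 4.63 CPM without (log2 fold change -0.69, SE 0.14), and 4.41, 4.28 and 3.96 CPM with DOX in the control line, against 3.44, 4.39 and 3.86 CPM without (0.12, SE 0.13, adjusted p = 0.48). The groups were apart in the miR-23b line and overlapped in the control line. Pycr1, a proline synthesis enzyme, had 16.5, 15.6 and 18.8 CPM with DOX in the miR-23b line, against 18.2, 18.5 and 20.3 CPM without. Pycr1 went the other way in the miR-137 line, with 22.9, 25.2 and 22.1 CPM with DOX, against 21.02, 21.98 and 19.0015 CPM without. The log2 fold changes were -0.17 and 0.18 (SE 0.07 each), and the groups overlapped in the miR-23b line but not in the miR-137 line.

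The 3 mitochondrial one-carbon genes were mixed. Mthfd2, a folate enzyme of mitochondria, rose by 0.15 in the miR-23b and 0.09 in the miR-137 line on the log2 scale (SE 0.03 each), and its control value of 0.03 did not pass the test (adjusted p = 0.49). Shmt2, which turns serine into glycine and a one-carbon unit, fell by 0.16, 0.24 and 0.21 in the miR-23b, miR-137 and control lines. Mthfd1l, which makes formate in mitochondria, had log2 fold changes of -0.25 in the miR-23b line and 0.19 in the miR-137 line, which both passed, and 0.10 in the control line, which did not.

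All 4 transport genes fell in the control line and 2 in the miR-137 line. In the miR-23b line 2 fell and 1 rose, with a median of -0.05 that turned to 0.08 on the TPM scale. The median of all genes tested was 0.0783 on that scale in this line. Slc38a2 encodes the adaptable neutral amino acid carrier SNAT2. It had 429, 419 and 419 CPM with DOX in the miR-23b line, against 438.8, 476.6 and 451.9 CPM without, and 334, 313 and 331 CPM with DOX in the control line, against 437.6, 465.0 and 478.8 CPM without. The log2 fold changes were -0.11 and -0.50 (SE 0.03 each), and on the TPM scale the first of them was 0.0018 (adjusted p = 0.98). Slc7a5, the light chain of the LAT1 leucine exchanger, rose by 0.20 in the miR-23b line and fell by 0.09 in the control line. Its partner Slc3a2 had 0.0047 in the miR-23b line (adjusted p = 0.91) and fell by 0.19 in the control line. Slc7a1, which imports arginine and lysine, fell in every line, by 0.59 in the miR-23b, 0.21 in the miR-137 and 0.29 in the control line.

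Of the 8 tRNA synthetases, 7 fell in the miR-23b line, and 6 fell and 1 rose in each of the others. Aars, the alanyl-tRNA synthetase gene, had 434.6, 433.3 and 446.7 CPM with DOX in the miR-23b line, against 710, 715 and 744 CPM without (log2 fold change -0.72, SE 0.03). It had 594, 602 and 583 CPM with DOX in the control line, against 705, 688 and 677 CPM without (-0.22, SE 0.03). Groups were separate in both, and Exosc6, on the same strand, overlaps 14.3% of Aars exon bases. Sars, for serine, had 224, 223 and 216 CPM with DOX in the miR-23b line, against 349, 354 and 355 CPM without, and 224, 224 and 209 CPM with DOX in the miR-137 line, against 323, 343 and 328 CPM without. The control line had 243, 247 and 234 CPM of Sars with DOX, against 322, 333 and 324 CPM without, for log2 fold changes of -0.67, -0.60 and -0.43. Wars, for tryptophan, rose in the miR-137 (0.09) and control lines (0.13) and fell by 0.16 in the miR-23b line.

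**Figure D3:**
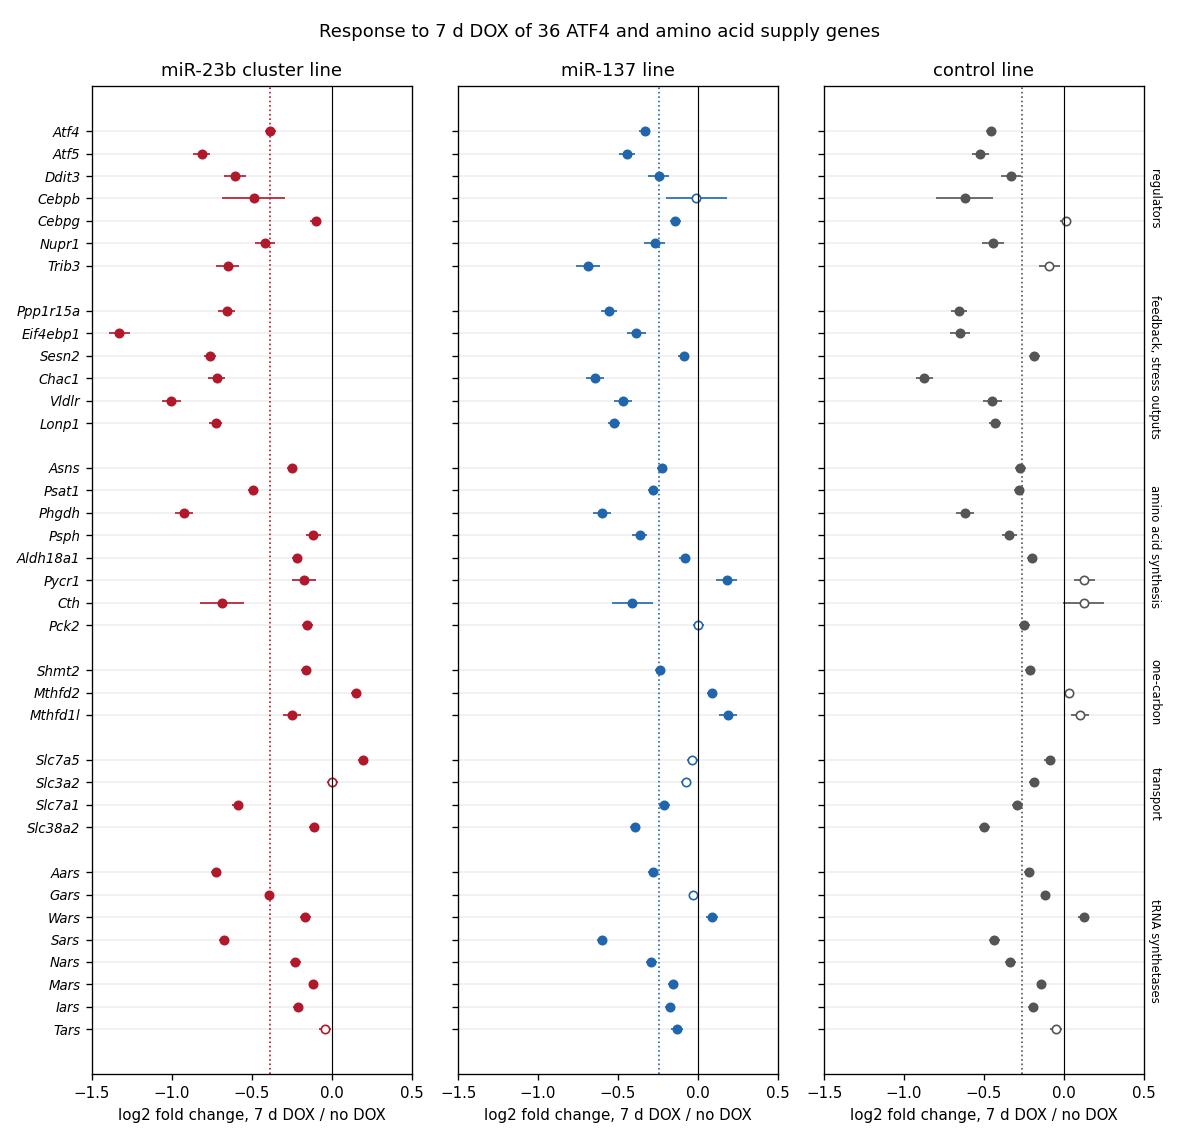
Log2 fold change of 7 d DOX over no DOX (horizontal, bars are SE) for the 36 tested members (vertical, by role) in the miR-23b, miR-137 and control lines. Filled points passed an adjusted p below 0.05, open points did not, and dotted lines are member medians, at -0.39, -0.24 and -0.26.

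Markers of other islet endocrine cells, mainly the glucagon gene Gcg, moved with DOX as well: the sum of the 5 was 37.1 to 65.4 CPM in libraries with 7 d of DOX and 16.9 to 25.9 CPM without. The 10 beta cell markers all fell in the miR-23b line, with sums of 11960.5 to 12593 CPM with DOX and 15681 to 15852.5 CPM without. In the miR-137 line 5 fell and 2 rose, and in the control line 3 fell and 2 rose. Of all genes tested, 28.6%, 21.8% and 19.3% fell and 28.8%, 21.0% and 18.5% rose in the miR-23b, miR-137 and control lines. None of the 10 beta cell markers was at 0 in any group. The part of these shifts in the members' changes was not tested.

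Because the control line responded too, the response of each miRNA line was set against it. In the miR-23b line the response differed from the control line's for 22 of 36 members, 17 lower and 5 higher, where 37.6% of all genes tested differed (19.4% lower and 18.1% higher). The 2 members with at least a 1.5-fold difference were Cth, at -0.81 (SE 0.19, adjusted p = 6.3e-04), and Eif4ebp1, at -0.68 (SE 0.09, adjusted p = 1.1e-07). Just below that size lay Sesn2 (-0.58, SE 0.05), Trib3 (-0.56, SE 0.10), Vldlr (-0.56, SE 0.08) and Aars (-0.50, SE 0.04). The member median was -0.07, against -0.0052 over all genes tested. With 1 library left out it lay between -0.2084 and -0.0555, the lowest without replicate 2 of the miR-23b line with DOX.

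The roles did not move together. Of the feedback outputs 4 of 6 were lower relative to the control response, with Chac1 (0.15, adjusted p = 0.13) and Ppp1r15a (-0.0021, adjusted p = 0.99) not passing. Atf4 (0.07, SE 0.05, adjusted p = 0.24) and Asns (0.02, SE 0.05, adjusted p = 0.74) did not pass either, so their declines were not distinguished from those of the control line. Of the synthetases Aars, Gars, Wars and Sars were lower and none higher. Of the 4 transport genes 3 were higher, namely Slc38a2 (0.39, SE 0.05), Slc7a5 (0.28, SE 0.05) and Slc3a2 (0.19, SE 0.05), while Slc7a1 was lower (-0.30, SE 0.05). Psph (0.22) and Mthfd2 (0.12) were the other members higher than in the control response.

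Scaling matters for this comparison. In TPM 66.6% of all calls were higher, against 48.3% in CPM. The members divided into 11 higher and 13 lower in TPM, with a median of 0.0208. The median of all genes tested was -0.0052 in CPM and 0.0699 in TPM. In TPM the synthesis enzymes' median turned from -0.12 to 0.0079. There 3 transport genes were higher and 0 lower, and 4 feedback outputs were lower and 1 higher.

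Members with a 3′ UTR complement of the miR-27b or miR-24 seed made up 16 of the 36. The seed of miR-23b was not searched, so the other 20 may hold complements of it. Of these 16, 12 were lower and 1 higher relative to the control response, with a median of -0.30. Of the 20 without one, 5 were lower and 4 higher, with a median of 0.02. Over all genes with a 3′ UTR the contrast was small: 23.1% lower and 20.9% higher among 4559 with a complement, and 19.6% lower and 19.2% higher among 8481 without. In TPM 10 of the 16 were lower and 3 higher, and 3 of the 20 lower and 8 higher. UTR length differed alongside, with a median of 1883.5 bases in the 16 and 561.5 bases in the 20. In the control line, which carries no miRNA insert, 10 of the 16 and 18 of the 20 had fallen. The complements were examined with these responses already known, and the association was not tested.

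**Figure D4:**
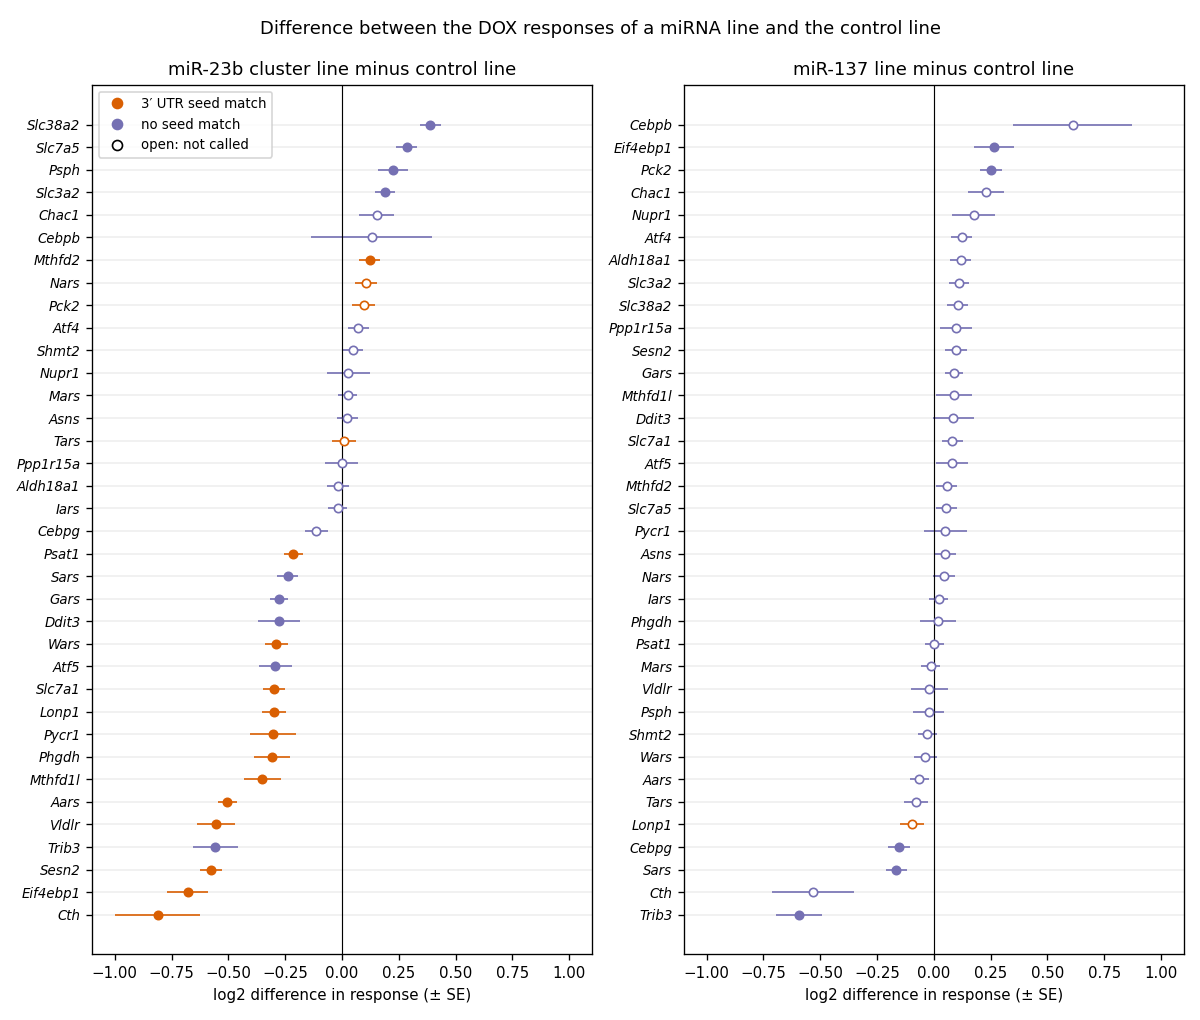
Difference on the log2 scale between the DOX response of a miRNA line and that of the control line (horizontal, bars are SE) for 36 members ordered by size, with the miR-23b line left and the miR-137 line right. Orange marks a 3′ UTR seed complement (miR-27b or miR-24 on the left, miR-137 on the right) and open points did not pass the test; Cth at -0.81 is lowest on the left and Trib3 at -0.59 on the right.

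For miR-137 few members differed from the control response: 5 of 36, 2 higher and 3 lower, where 10.7% of all genes tested differed (5.9% higher and 4.78% lower). Trib3 stood out, at -0.59 (SE 0.10, adjusted p = 7.4e-05), though on the TPM scale it was -0.40 with an adjusted p of 0.07. Sars (-0.17, SE 0.05) and Cebpg (-0.15, SE 0.05) were the others lower. Pck2 and Eif4ebp1 were higher. Pck2, the mitochondrial enzyme that makes phosphoenolpyruvate, had 122, 125 and 124 CPM with DOX in the miR-137 line, against 125, 125 and 120 CPM without, and 109, 113 and 107 CPM with DOX in the control line, against 130, 136 and 125 CPM without. The miR-137 groups overlapped and the control groups did not, for a difference of 0.25 (SE 0.05, adjusted p = 4.8e-04).

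The Eif4ebp1 difference of 0.26 (SE 0.09, adjusted p = 0.041) no longer passed without any 1 of 6 libraries (replicates 1 and 2 of the miR-137 line with DOX, its replicate 3 without, replicate 3 of the control line with DOX and its replicates 2 and 3 without), with adjusted p of 0.060 to 0.13. The member median was 0.05, against -0.0044 over all genes tested. On the TPM scale 43.7% of all calls were higher, against 55.2% in CPM, and 1 member was higher and 2 lower. The count of 5 became 2 at an adjusted p below 0.01. It became 3 when replicate 3 of the control line with or without DOX, replicate 2 of the miR-137 line with DOX or its replicate 3 without was left out, and the highest count with 1 library left out was 7. The seed complement of miR-137 lay in 1439 genes, of which 15.6% were lower than the control response, beside 3.98% of the 11601 without it. The only member with it, Lonp1, had -0.10 (SE 0.05, adjusted p = 0.26). Both differences of responses use the same control libraries, so they are not independent of each other.

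Set directly against the control line with DOX, the miR-23b line with DOX was higher for 15 members and lower for 18, where 25.9% and 26.3% of all genes tested were (52.2% in either direction). Transport again stood on the higher side, with 3 of 4 genes higher and Slc7a5 at 0.44 (SE 0.03). Trib3 was the lowest at -0.67 (SE 0.07). On the TPM scale 16 members were higher and 14 lower, with 61.2% of all calls higher against 49.5% in CPM. The miR-137 line with DOX was higher than the control line with DOX for 12 members and lower for 4 (14.7% and 12.6% of all genes, 27.3% in either direction), which became 6 and 6 on the TPM scale, where 40.6% of all calls were higher against 53.7%. Trib3 was again the lowest of those that passed, at -0.84 (SE 0.07), and Cebpg the next at -0.24 (SE 0.04).

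After DOX had been withdrawn for 7 d, more members of the miR-23b line were higher than lower. Relative to 7 d DOX, 20 of 36 were higher and 6 lower, where 26.4% and 25.8% of all genes tested were (52.2% in either direction). Eif4ebp1 had 49.5, 43.8 and 48.9 CPM in withdrawn cells, against 27.1, 27.7 and 30.5 CPM with DOX (log2 fold change 0.75, SE 0.07). Aars had 648, 649 and 613 CPM in withdrawn cells, against 434.6, 433.3 and 446.7 CPM with DOX (0.54, SE 0.03). Vldlr had 121, 96.2 and 104 CPM in withdrawn cells, against 72.9, 74.1 and 74.0 CPM with DOX (0.54, SE 0.06). No withdrawn library of these 3 genes overlapped the DOX libraries.

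For other members of the miR-23b line withdrawal gave no call, or a lower level. Trib3 had 25.5, 25.1 and 23.5 CPM in withdrawn cells, against 22.9, 21.4 and 24.7 CPM with DOX (0.11, SE 0.08, adjusted p = 0.23), and the groups overlapped. Atf5 (0.03), Ppp1r15a (-0.02) and Chac1 (0.09) did not pass the test either. Slc7a5, which had risen with DOX, was lower by 0.42 after withdrawal (SE 0.03), and Slc38a2 had 365, 355 and 360 CPM in withdrawn cells, against 429, 419 and 419 CPM with DOX (-0.23, SE 0.03). This comparison is sensitive to scaling: on the TPM scale 30.8% of all calls were higher, against 50.6% in CPM. There 9 members were higher and 11 lower, and the member median of 0.13 turned to -0.0118. The median of all genes tested turned from 0.0018 in CPM to -0.0831 in TPM. Regulators and synthetases changed the sign of their medians there, to -0.03 and -0.02, and so did single values of Iars and Mthfd1l. Summed beta cell markers moved alongside, at 17417 to 17750.5 CPM in withdrawn cells and 11960.5 to 12593 CPM with DOX, and their part was not tested.

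Against cells that had no DOX, 28 members of the withdrawn miR-23b line were lower and 2 higher, where 20.6% and 19.2% of all genes tested were (39.8% in either direction). The member median was -0.25, against 0.0027 over all genes. Atf4 had 351, 344 and 336 CPM in withdrawn cells, against 385, 398 and 388 CPM with no DOX (-0.18, SE 0.03), and no library overlapped. Atf5 had 200, 205 and 213 CPM in withdrawn cells, against 344, 380 and 338 CPM with no DOX (-0.78, SE 0.05). Cebpb stood at -0.75 (SE 0.21), a call lost when replicate 2 with no DOX was left out (-0.52, adjusted p = 0.094). Pycr1 was higher than with no DOX, at 23.8, 23.2 and 23.7 CPM in withdrawn cells, against 18.2, 18.5 and 20.3 CPM (0.31, SE 0.07), and Mthfd2 was the other member higher (0.10, SE 0.03). The sum of 5 markers of other islet endocrine cells, mainly Gcg, was also higher, at 61.4 to 64.4 CPM in withdrawn cells. It was 37.1 to 45.0 CPM with DOX and 19.97 to 25.92 CPM with no DOX. Of the 2 markers that passed the low-count filter, 1 was higher and 1 lower than with no DOX. The part of these markers in the members' changes was not tested.

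In the miR-137 line, withdrawn cells were higher than cells with 7 d DOX for 23 members and lower for 2, where 14.7% and 14.8% of all genes tested were (29.5% in either direction). Trib3 changed most, with 37.9, 40.2 and 35.1 CPM in withdrawn cells, against 21.0, 20.8 and 19.1 CPM with DOX (0.89, SE 0.07, adjusted p = 2.4e-12). Chac1 had 35.99, 37.54 and 34.53 CPM in withdrawn cells, against 25.98, 29.02 and 27.30 CPM with DOX (0.39, SE 0.06). Nupr1 had 27.9, 26.8 and 27.7 CPM in withdrawn cells, against 22.3, 20.9 and 19.5 CPM with DOX (0.39, SE 0.06). All withdrawn libraries of the 3 genes exceeded those with DOX. Slc38a2 was among the 2 lower, with 324, 322 and 318 CPM in withdrawn cells, against 356, 350 and 355 CPM with DOX (-0.14, SE 0.03), and Pck2 was the other (-0.10, SE 0.03).

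Relative to no DOX, 18 members of the withdrawn miR-137 line were lower and 4 higher, where 21.7% and 21.6% of all genes tested were (43.4% in either direction). Slc38a2 was lowest, with 324, 322 and 318 CPM in withdrawn cells, against 462.1, 453.2 and 477.7 CPM with no DOX (-0.53, SE 0.03). Ppp1r15a followed, with 36.4, 38.0 and 34.6 CPM in withdrawn cells, against 52.3, 54.2 and 49.6 CPM with no DOX (-0.52, SE 0.05). The 4 higher members were Pycr1 (0.46, SE 0.06), Mthfd2 (0.28, SE 0.03), Trib3 (0.21, SE 0.07) and Tars (0.12, SE 0.04). Tars had 122, 113 and 116 CPM in withdrawn cells, against 108, 105 and 111 CPM with no DOX. The same 5 endocrine markers summed to 54.4 to 62.1 CPM in withdrawn cells of this line. Their sum was 58.4 to 65.4 CPM with DOX and 16.9 to 18.7 CPM with no DOX. Of the 2 that passed the low-count filter, 1 was higher and 1 lower than with no DOX. The part of these markers was not tested. Withdrawn cells of both miRNA lines had been cultured for 14 d, and cells with 7 d DOX or with no DOX for 7 d. The control line had no withdrawn group. Withdrawal and time in culture therefore cannot be told apart, whether withdrawn cells are set against 7 d DOX or no DOX.

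**Figure D5:**
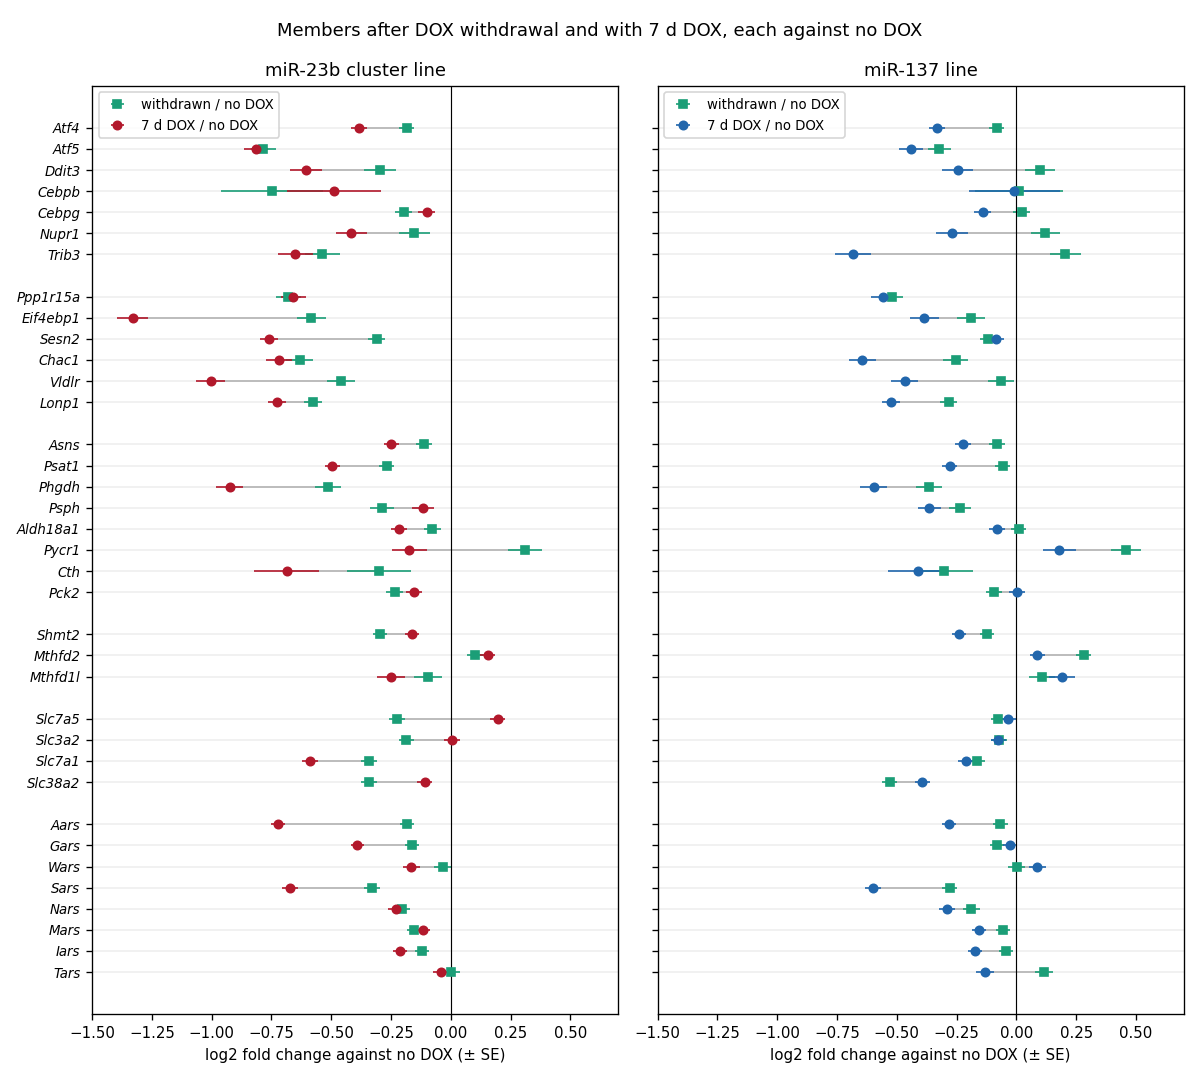
Log2 fold change against no DOX (horizontal, bars are SE) after DOX withdrawal (squares) and with 7 d DOX (circles) for 36 members (vertical, by role) in the miR-23b line, left, and the miR-137 line, right, with grey lines joining the values of a gene. Trib3 lies at 0.21 after withdrawal in the miR-137 line, against -0.54 in the miR-23b line.

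Without DOX the member differences between lines that passed the test were small, at most 0.24 in size on the log2 scale. Mir27b was low without DOX, averaging 0.490 CPM in the miR-23b line and 0.0353 CPM in the control line, and its part was not tested. The miR-23b line was higher than the control line for 11 of 36 members (30.6%) and lower for 0, where 3.59% and 2.78% of all genes tested were (6.37% in either direction). The largest that passed was Nupr1 with 28.8, 31.0 and 29.9 CPM in the miR-23b line, against 24.8, 23.8 and 27.4 CPM in the control line (0.24, SE 0.06, adjusted p = 0.016). These libraries did not overlap, but the call was lost without replicate 2 or 3 of the miR-23b line or replicate 1 or 2 of the control line (adjusted p 0.051 to 0.12). Tars and Nars, synthetases for threonine and asparagine, followed: Nars had 416.7, 442.4 and 438.5 CPM in the miR-23b line, against 375, 396 and 388 CPM in the control line (0.16, SE 0.03), and Tars 120, 112 and 116 CPM, against 103, 103 and 102 CPM (0.18, SE 0.04). On the TPM scale 1 member was higher, and 33.7% of all calls were higher, against 56.3% in CPM. The miR-137 line was lower than the control line for 2 members and higher for 0 (0.814% and 1.89% of all genes, 2.7% in either direction), namely Trib3 (-0.24, SE 0.07) and Chac1 (-0.21, SE 0.05), and both calls were lost on the TPM scale and when replicate 2 of the control line with no DOX was left out (adjusted p = 0.24 for Trib3 and 0.18 for Chac1).

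Neighbouring genes of the pathway, from lists written beside the members, behaved unevenly under 7 d DOX. Over all genes tested, 28.6%, 21.8% and 19.3% fell and 28.8%, 21.0% and 18.5% rose in the miR-23b, miR-137 and control lines. Of 14 other amino acid transporters tested, 10 fell in each line, and 2, 1 and 2 rose in the miR-23b, miR-137 and control lines. Among those that fell was Slc7a11, the cystine carrier, by 0.99 in the miR-23b and 0.94 in the miR-137 line on the log2 scale. Of 12 other cytosolic tRNA synthetases 6, 6 and 3 fell in the miR-23b, miR-137 and control lines, and 1, 1 and 3 rose. Of 17 mitochondrial synthetases 2, 3 and 4 fell and 6, 0 and 2 rose. Among 14 genes of the eIF2α kinases, eIF2 and eIF2B, 8, 7 and 6 fell and 2, 2 and 0 rose. There Ppp1r15b, the constitutive partner of the eIF2α phosphatase, fell by 0.60, 0.36 and 0.32, while Eif2ak3, the kinase PERK, rose in the miR-23b (0.22) and miR-137 (0.33) lines.

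Of 10 other serine, glycine and folate enzymes, 6, 7 and 4 fell and 4, 2 and 1 rose in the miR-23b, miR-137 and control lines. Aldh1l1, which oxidises formyl-folate in the cytosol, fell the most there, by 2.85, 1.98 and 1.51 on the log2 scale (SE 0.21, 0.19 and 0.17). Its mitochondrial counterpart Aldh1l2 fell by 0.81 in the miR-23b and 0.34 in the control line. Of 18 other amino acid enzymes 5, 4 and 6 fell and 6, 6 and 4 rose. The shares of all genes tested were again 28.6%, 21.8% and 19.3% falling and 28.8%, 21.0% and 18.5% rising. In a list of 29 further ATF4 and mitochondrial stress genes, 14, 14 and 12 fell and 3, 7 and 5 rose, with Rragd, a subunit of the Rag GTPases that bring mTORC1 to the lysosome, at -2.50, -1.59 and -1.54 (SE 0.06, 0.05 and 0.05). Among those that rose, Pmaip1, a pro-apoptotic BCL2 family gene, rose by 1.42 in the miR-23b (SE 0.35) and 2.52 in the control line (SE 0.29), and Gdf15, a secreted stress hormone gene, by 0.84 in the miR-137 line (SE 0.21).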

How the data were processed

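Polyadenylated RNA of 24 libraries from βTC3 cells was measured with a stranded TruSeq kit, per the labels' protocols. The authors deposited raw read counts per gene for each library and as 1 table, which held identical values (0 differing), and TPM values per gene. The submitters' processing notes list RSEM 1.2.19, featureCounts, HTSeq 0.6.1, STAR 2.4.0g and cutadapt 1.3. The deposited counts and TPM values are both named after HTSeq. Beyond that name, the sources used here do not say which tool made which, nor the strand setting of the counting. Rows for reads outside genes (9.62% to 12.1%) and for reads not placed uniquely (25.4% to 27.7%) stayed out of library sizes.

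The members, gene lists, sequence searches and tests were chosen with earlier results of these data known. Counts of all genes were fitted at once with edgeR 4.0.16 in R 4.3.3 (default low-count filter, TMM scaling, 8 group means, quasi-likelihood F test, 13 comparisons, common biological coefficient of variation 3.00%). A call is a Benjamini-Hochberg adjusted p below 0.05 over all 14866 genes tested within a comparison, and SE is the log2 change over the root of F. CPM use TMM-scaled library sizes and compare libraries within a gene; TPM compares genes. On simulated counts for the control line's DOX comparison (14866 genes) the fit recovered 98% of changes of -1, 82% of -0.5, 84% of 0.5 and 98% of 1 on the log2 scale, with 9 false calls. Only a small share of genes, none of the lowest counts, was altered in this simulation. In the real comparison 37.8% of all genes tested were called, so these rates need not hold there.

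Values of single libraries, in at least some of the groups, are given for Atf4, Ddit3, Asns, Chac1, Trib3 and Sesn2. They are also given for the 3 members with the largest called changes in any comparison, and for called differences between responses of at least 1.5-fold. Alternatives were other scalings (RLE, upper quartile), no filter or a stricter one, DESeq2 1.42.0, limma 3.58.1 (voom, and log2 TPM with pseudocounts of 0.5 and 1), a replicate block, only the groups compared, an adjusted p below 0.01 and leaving out each library. Replicate numbers were not taken as pairs. 1 promoter sequence is not reported here.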

Additional observations from a re-analysis of the deposited data

Results flagged for a closer look

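For 22 members the response to DOX in the miR-23b line differed from that of the control line by an interaction test in edgeR (adjusted p below 0.05). The differences on the log2 scale, miR-23b response minus control response, were negative for 17. Among regulators they were -0.29 for Atf5, -0.28 for Ddit3 and -0.56 for Trib3. Among feedback and stress outputs they were -0.68 for Eif4ebp1, -0.58 for Sesn2, -0.56 for Vldlr and -0.30 for Lonp1. Among synthesis and one-carbon enzymes they were -0.81 for Cth, -0.31 for Phgdh, -0.30 for Pycr1, -0.21 for Psat1 and -0.35 for Mthfd1l. The arginine carrier Slc7a1 had -0.30, and the synthetases Aars, Wars, Gars and Sars had -0.50, -0.29, -0.28 and -0.24. The positive differences were 0.39 for Slc38a2, 0.28 for Slc7a5, 0.22 for Psph, 0.19 for Slc3a2 and 0.12 for Mthfd2.

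For 5 members the response in the miR-137 line differed from the control line's in the same test. The differences were -0.59 for Trib3, -0.17 for Sars and -0.15 for Cebpg, and 0.26 for Eif4ebp1 and 0.25 for Pck2. Eif4ebp1 thus differed in opposite directions in the miRNA lines, though its miR-137 call was lost in some fits with 1 library left out. The same 6 control libraries enter both sets of differences. Groups of 3 libraries were not examined for single outlying values.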

How the results depend on the processing

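On the TPM scale (pseudocounts 0.5 and 1) the member median became -0.2732 and -0.2592 for DOX in the miR-23b line, -0.2344 and -0.234 in the control line and, with 0.5, -0.2692 in the miR-137 line. It became 0.0208 and 0.0211 for the miR-23b minus control response, -0.0545 and -0.0541 for the miR-23b against the control line on DOX, 0.0099 and 0.0098 for the miR-137 against the control line on DOX, -0.0118 and -0.0112 for miR-23b withdrawal against 7 d DOX, -0.1218 and -0.1196 for miR-137 withdrawal against no DOX, and 0.0449 and 0.0445 for the miR-23b against the control line with no DOX. From the miR-23b minus control response onward, the all-gene medians with 0.5 were 0.0699, 0.046, -0.028, -0.0831, -0.0159 and -0.0202, in the same order. In CPM these were -0.0052, -0.0071, -0.0051, 0.0018, 0.0081 and 0.0049. In each of these comparisons the member median lay on the same side of the all-gene median on both scales. Upper quartile scaling gave member medians of -0.2328 for control DOX, -0.3675 for miR-23b DOX and -0.231 for miR-23b withdrawal against no DOX. Without a filter, where Stc2 also entered, miR-23b DOX gave -0.3778 and the miR-23b minus control response -0.0975, and a fit of only the groups compared gave -0.3959 for miR-23b DOX. Calls for the miR-137 minus control response numbered 2 at an adjusted p below 0.01 and 3 and 3 on the TPM scale. With no DOX, calls for miR-23b against control numbered 7 at 0.01 and 1 and 1 on TPM, and for miR-137 against control 0 at 0.01 and 0 and 0 with limma on TPM, against 2 with edgeR. The cause was not tested.

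With 1 library left out, the median ranged from -0.3953 to -0.2943 for miR-23b DOX, -0.2769 to -0.2279 for control DOX, -0.2084 to -0.0555 for the miR-23b and 0.0371 to 0.0783 for the miR-137 minus control response, -0.1501 to -0.1176 for miR-23b against control on DOX, 0.1053 to 0.1528 for miR-23b withdrawal against 7 d DOX and -0.2718 to -0.2333 against no DOX. The value of -0.2084 came without replicate 2 of the miR-23b line with DOX. Calls ranged from 3 to 7 for the miR-137 minus control response and, with no DOX, from 6 to 12 for miR-23b and 0 to 3 for miR-137 against control. Among single members named for a comparison, 1764 values kept direction and side of the threshold and 56 lost the call, mostly for Sesn2 under miR-137 DOX, the Eif4ebp1 miR-137 minus control response and the lines compared with no DOX. With no DOX, Trib3 in miR-137 against control was lost without control replicate 1 or 2 or miR-137 replicate 1 or 3, and Chac1 without control replicate 2 or miR-137 replicate 1 or 3.

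The labels do not say that replicate numbers pair libraries. Deviations of same-numbered libraries correlated at -0.066 to 0.183 (84 pairs), and 20 of 24 libraries correlated best with their own number, a hint from the data and not from the design. With the replicate block, calls for the miR-137 minus control response numbered 8, and counts in the other 12 comparisons stayed within 1.5-fold. Triplicates without stated origin, and low counts for Cth and Cebpb, limit precision.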
